A study of Mus musculus with 6 samples.

Results

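The pumps described here move calcium and sodium ions across neural membranes at the cost of ATP. They were taken as the probe sets annotated to 1 gene symbol among Atp2c1, Atp2a2, Atp2a3, Atp2b1, Atp2b2, Atp1b1 and Atp1b2. Of these 7 genes 6 had such a probe set, with 11 probe sets in all, out of 10833 probe sets and 8251 genes with 1 symbol on the array. Atp2b1, the plasma membrane calcium pump PMCA1, had none and was not analysed here. The genes were selected on the knockout and wild-type signals of these same arrays, so the genotype differences of the pumps are given as a description and no test of them is used.

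The RNA came from the whole brains of 6 male C57BL/6J mice, each on an array of its own. The Ncam-/- group consisted of 3 mice with a constitutive knockout of the Ncam gene, the source of the neural cell adhesion molecule (NCAM), and the Ncam+/+ group of 3 wild-type mice of the same background. Both groups held 2 animals aged 2 months, numbered 1 and 2, and 1 animal aged 3 months, number 3. The knockout is present in every cell, and a whole brain pools all regions and cell types, so fewer cells of a type and less RNA per cell cannot be told apart in any value below.

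Calcium is kept scarce in the cytosol of neurons and glia by pumps that form a phosphorylated intermediate and are therefore called P-type. SERCA pumps (Atp2a genes) fill the endoplasmic reticulum, the SPCA1 pump (Atp2c1) fills the Golgi with calcium and manganese, and PMCA pumps (Atp2b genes) expel calcium through the plasma membrane. The sodium pump restores the sodium and potassium gradients after electrical activity, and its beta subunits, encoded by Atp1b1 and Atp1b2, help to bring the pump to the cell surface. The beta subunit of Atp1b2 is also known as AMOG, an adhesion molecule on glia.

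The start windows of the genes whose signals did not overlap between the groups are shown first, because a probe set reads a transcript without telling from which start it came. RefSeq (GRCm38.p6) gave windows of 250 bases before to 50 bases after a start for 4 of the 6 measured genes, with 2 windows for Atp2c1 and 3 for Atp2b2. Both Atp2c1 windows and the Atp2b2 window farthest upstream of its 3 are printed 5′ to 3′ on the minus strand, and capitals mark the GC box (GGGCGG or its reverse complement CCGCCC).
Atp2c1 outer start, chr9:105521208-105521507: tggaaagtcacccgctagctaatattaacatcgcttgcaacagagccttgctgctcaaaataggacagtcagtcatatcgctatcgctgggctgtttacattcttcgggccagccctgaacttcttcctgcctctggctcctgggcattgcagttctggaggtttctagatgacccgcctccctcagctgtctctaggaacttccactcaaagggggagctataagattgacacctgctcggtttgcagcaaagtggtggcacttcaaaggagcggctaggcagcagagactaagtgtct
Atp2c1 inner start, chr9:105495084-105495383: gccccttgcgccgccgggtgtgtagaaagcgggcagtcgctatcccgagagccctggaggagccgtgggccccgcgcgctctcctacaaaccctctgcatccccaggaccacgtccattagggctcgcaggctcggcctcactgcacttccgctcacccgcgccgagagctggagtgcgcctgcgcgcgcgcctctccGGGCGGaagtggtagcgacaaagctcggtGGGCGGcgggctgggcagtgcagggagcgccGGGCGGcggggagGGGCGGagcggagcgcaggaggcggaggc
Atp2b2 start, chr6:114042031-114042330: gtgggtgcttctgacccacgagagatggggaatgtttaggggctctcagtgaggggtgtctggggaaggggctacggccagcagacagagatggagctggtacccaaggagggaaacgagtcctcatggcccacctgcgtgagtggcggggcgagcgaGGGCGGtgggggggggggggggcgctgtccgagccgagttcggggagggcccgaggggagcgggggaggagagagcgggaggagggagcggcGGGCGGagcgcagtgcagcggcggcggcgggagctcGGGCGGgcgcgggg

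The Atp2c1 starts lay 26.1 kb apart and differed in base composition. The inner window held 36 CpG dinucleotides, 73.3% G and C and 4 GC boxes, and the outer window 8 CpG dinucleotides, 51.7% G and C and no GC box. Over all 32851 windows the median was 7 CpG dinucleotides and 52.7% G and C, and 35.7% held a GC box on either strand. The Atp2b2 window held 27 CpG dinucleotides and 3 GC boxes. CCAAT (reverse complement ATTGG, in 37.4% of all windows) and TATAAA (reverse complement TTTATA, in 13.6%) were found in none of the 3 windows. These letters describe the windows and bear on no expression value.

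The arrays were comparable in scale. Each had a mean signal near 300.2 over the middle 96% of values, and log2 signals of any pair of arrays correlated between 0.967 and 0.985 across the tested probe sets. The Ncam1 probe set with the highest signal gave 276.2, 208.7 and 327.4 in knockout brains, against 1346, 1448 and 1216 in wild-type brains, and was lower in every knockout animal. Knockout replicate 2 stood apart, since the summed signal of 10 cerebellar marker genes was 4593 in it, against 12299 to 13790 on the other 5 arrays. Knockout replicate 1 had a summed signal of 15816 over 8 pituitary genes, against 985.0 to 1401 elsewhere. As a sign of RNA quality, the 3′ to 5′ signal ratio of the Gapdh control lay at 0.811 to 0.826 on the knockout arrays and at 0.768 to 0.798 on the wild-type arrays, without overlap. That of the actin control was 1.22, 1.18 and 1.14 on knockout arrays 1, 2 and 3, against 1.09, 1.08 and 1.20 on wild-type arrays 1, 2 and 3, with overlap. Marker genes of neurons were bright on all 6 arrays, with sums of 25118 to 25921 over 9 genes in knockout brains, against 24922 to 26370 in wild-type brains.

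Signals are linear intensities, each from 1 animal. Each difference is the knockout mean minus the wild-type mean of log2(signal + 16), with the standard error of a limma fit across the 7453 probe sets that reached the brightness limit. Of the 11 pump probe sets 6 were bright enough, 1 for each of the 6 genes. Of these, 2 had higher and 4 lower knockout means, with a median difference of -0.14 beside 0.00171 over all tested probe sets. In 2 of the 6 the groups did not overlap, beside 12.9% of all tested probe sets. Of these, 1 was higher in knockout brains, beside 6.08% of all tested probe sets, and 1 lower, beside 6.80%. In limma 0 of the 6 were called at an adjusted p under 0.05, beside 0.0268% of all tested probe sets, and 1 had an unadjusted p under 0.05, beside 6.94%. Nothing is read from these counts, since the genes were selected on this contrast.

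**Figure D1:**
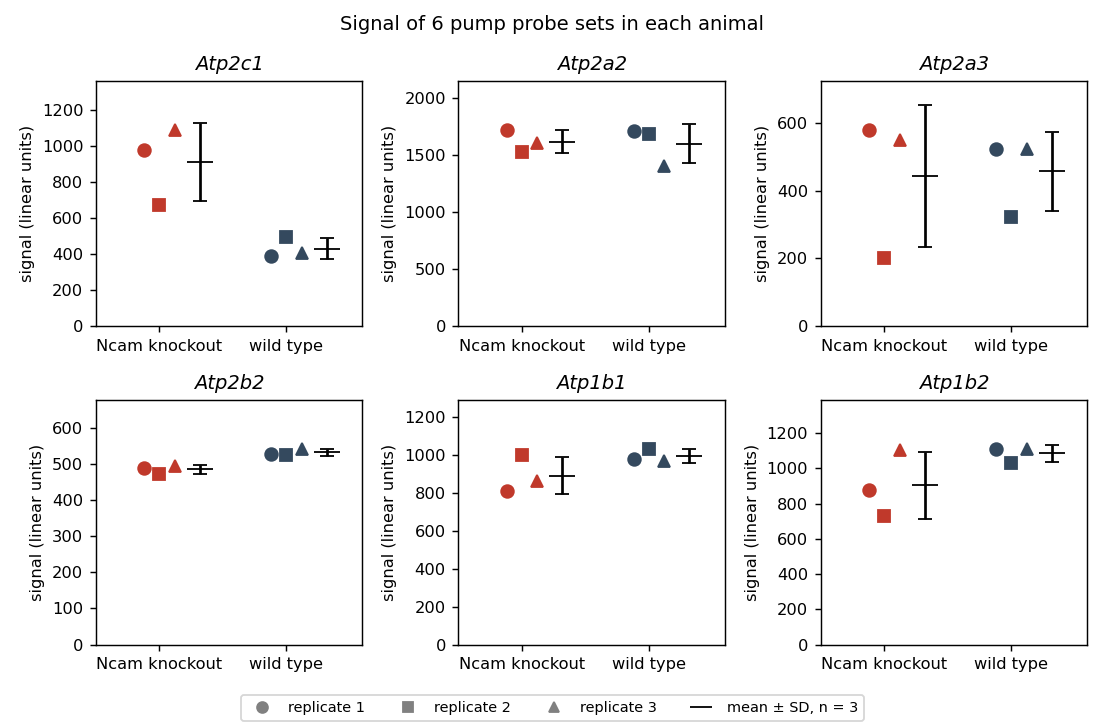
Signal in linear units (vertical axes, from 0) of the tested probe set of each pump gene in 3 Ncam knockout and 3 wild-type brains. Symbols mark replicates and the black bars the mean ± SD (n = 3). Atp2c1 lies between 670.0 and 1089 in knockout brains and between 387.4 and 497.1 in wild-type brains, while Atp2a3 is lowest in replicate 2 of both groups.

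The Golgi pump Atp2c1 had the largest difference of the 6 pump genes. Atp2c1, known in humans as the gene of Hailey-Hailey disease, read 977.6, 670.0 and 1089 in knockout replicates 1, 2 and 3 (probe set 95897_at), against 387.4, 497.1 and 406.9 in wild-type replicates 1, 2 and 3. All 3 knockout animals lay above all 3 wild-type animals, and the lowest knockout signal was 1.35 times the highest wild-type signal. The means were 912.3 ± 217 in knockout and 430.5 ± 58.5 in wild-type brains (SD, n = 3 each), a log2 difference of 1.04 ± 0.17 (SE) or 2.05-fold. Only 9 of the 7453 tested probe sets had a higher positive difference. The spread was unequal, since the range over animals was 0.69 on the log2 scale in knockout and 0.35 in wild-type brains.

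Knockout replicate 2, with low cerebellar signal, had the lowest Atp2c1 signal of the knockout animals. Without this animal the log2 difference was 1.24, and over all animals left out in turn it ran from 0.89 to 1.24. A second Atp2c1 probe set, 161574_r_at, was dim and was not tested. It read 12.9, 10.0 and 8.15 in knockout brains, against 4.88, 7.17 and 7.81 in wild-type brains, also without overlap, but all of these values lay below the filter limit of 72.2. When the probe sets of a gene were averaged on the log2 scale, the Atp2c1 difference was 0.63. The Gapdh ratio also differed between the groups without overlap, whereas the actin ratio overlapped, and the part of RNA quality in the Atp2c1 difference was not tested.

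Atp2c1 lies on chromosome 9 (105411362 to 105521257, GRCm38.p6), the chromosome of Ncam1, with 55.6 Mb between the genes. The genes around it were examined to see whether they differed likewise. Of 55 other genes tested within 5 Mb of Atp2c1, 22 had higher and 33 lower knockout values, and their median log2 difference was -0.03. Their differences ran from -0.46 (Traip) to 0.28 (Camp), so none came near that of Atp2c1. In limma 0 of them passed at an adjusted p under 0.05, and 4 (7.27%) had an unadjusted p under 0.05, beside 6.94% of all tested probe sets. The closest tested gene, Mrpl3, a mitochondrial ribosomal protein at a distance of 334 kb, read 489.8, 411.2 and 646.8 in knockout brains, against 533.7, 512.1 and 521.5 in wild-type brains. On the other side Wdr82, 650 kb away, had a log2 difference of 0.14 ± 0.11.

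**Figure D2:**
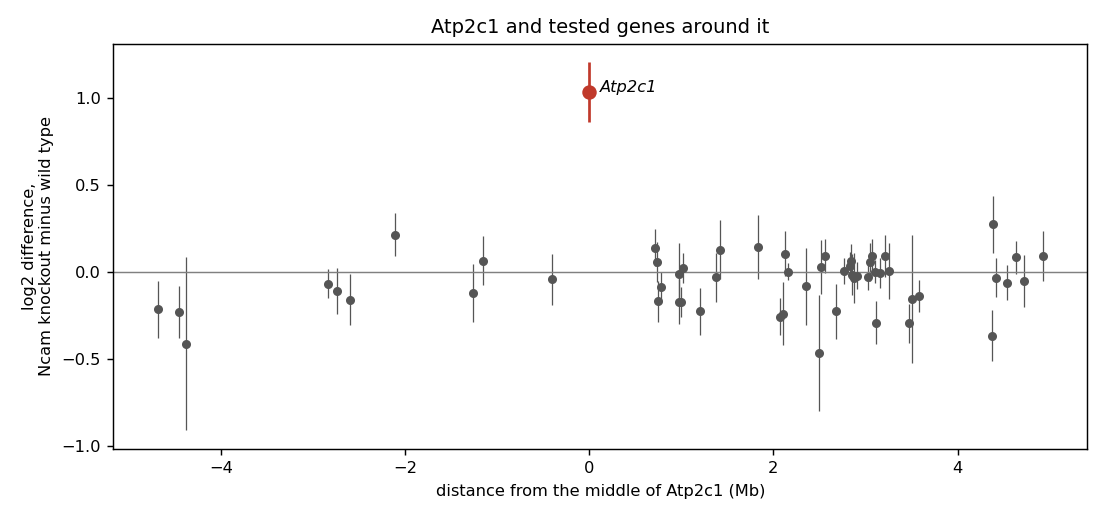
Log2 difference, knockout minus wild type, with its standard error (vertical axis) of Atp2c1 (red) and 55 other tested genes (grey), by distance from the middle of Atp2c1 in Mb (horizontal axis). The grey points lie between -0.46 and 0.28, below Atp2c1 at 1.04.

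Over the 6 animals the gene with the pattern most like that of Atp2c1 was Nup107, a nuclear pore protein. Likeness was measured as the root-mean-square difference of the centred log2 values over the 6 arrays, searched over 5659 tested genes. It was 0.25 for Nup107, 0.28 for Ap2b1, a subunit of the clathrin adaptor, and 0.28 for the keratin Krt33b. Nup107 read 270.0, 254.9 and 289.9 in knockout brains, against 164.9, 174.7 and 118.5 in wild-type brains. In Nup107 the groups did not overlap, and knockout replicate 2 was the lowest of the knockout animals. The search picked genes for likeness over the same 6 values, so such shared traits follow from it and nothing is read from them.

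The SERCA pumps of the endoplasmic reticulum differed in how much they varied between animals. Atp2a2 encodes SERCA2, the pump found in most cells. Its probe set, 99570_s_at, is of a less specific kind and read 1717, 1521 and 1606 in knockout brains, against 1707, 1685 and 1398 in wild-type brains. The groups overlapped fully, and the log2 difference was 0.02 ± 0.09. Its sign turned when knockout replicate 1 or wild-type replicate 3 was left out, with values from -0.07 to 0.07 over all animals left out in turn.

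Atp2a3, which encodes SERCA3, a pump of platelets, blood vessels and Purkinje cells, varied the most within groups. Its probe set 103935_at read 579.2, 201.3 and 550.7 in knockout replicates 1, 2 and 3, against 523.7, 323.0 and 524.3 in wild-type replicates 1, 2 and 3. Replicate 2 was low in both groups and the other 4 animals lay close together. The log2 difference of -0.14 ± 0.36 rested on knockout replicate 2, and without that animal it was 0.33. The coefficient of variation was 47.4% in knockout and 25.4% in wild-type brains, against 2.58% and 1.70% for Atp2b2.

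The cerebellar list and the blood and platelet list were set beside Atp2a3. The cerebellar list had a median of -1.92 in knockout replicate 2, relative to the wild-type mean on the log2 scale. In wild-type replicate 2, where Atp2a3 was also low, the median was -0.06, beside 0.10 and -0.05 in wild-type replicates 1 and 3. The listed blood and platelet genes went different ways. Hba-a1, a haemoglobin chain, read 3735, 3727 and 4276 in knockout replicates 1, 2 and 3, against 3283, 4583 and 3216 in wild-type replicates 1, 2 and 3. Alas2, an enzyme of haem synthesis in red cells, read 113.8, 87.8 and 107.2 in knockout brains, against 71.7, 92.1 and 63.2 in wild-type brains. Both were thus highest of the wild-type animals in replicate 2, where Atp2a3 was lowest. Pf4, a platelet factor singled out after its values were seen, read 67.6, 18.5 and 77.0 in knockout replicates 1, 2 and 3, against 69.8, 11.8 and 53.7 in wild-type replicates 1, 2 and 3. Pf4 was below the filter limit in its mean and was lowest in the same animals as Atp2a3. Gp9, a platelet gene also below the filter, read 29.4, 26.0 and 34.5 in knockout brains, against 25.6, 23.4 and 26.4 in wild-type brains. It too was lowest in replicate 2 of each group, by a small step. The whole list of 4 blood and platelet genes, led by haemoglobin, summed to 3860 to 4495 in knockout brains, against 3359 to 4710 in wild-type brains, and 2 of the 4 were below the filter. The part of either cell source in the Atp2a3 signal was not tested. The other Atp2a3 probe sets were dim. One, 93403_at, read 3.54, 2.09 and 10.3 in knockout brains, against 3.78, 4.76 and 2.82 in wild-type brains. The other, 93404_g_at, read 56.1, 33.0 and 29.5 in knockout brains, against 89.2, 68.7 and 32.8 in wild-type brains, and it did not follow the replicate 2 pattern.

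The genes nearest to Atp2a3 in pattern were Gtf3c4, a subunit of a transcription factor of RNA polymerase III, Inpp5d, the inositol phosphatase SHIP1, and Pitx1, a homeodomain factor of pituitary and hindlimb. Their root-mean-square differences were 0.16, 0.19 and 0.19 on the log2 scale. Gtf3c4 read 171.1, 66.9 and 184.6 in knockout, against 160.1, 80.6 and 133.3 in wild-type brains. Its low replicate 2 in each group follows from the search for likeness.

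Atp2b2, which encodes PMCA2, the fast calcium pump of cerebellar neurons and hair cells, had the tightest groups. It read 489.4, 470.7 and 494.5 in knockout brains, against 528.3, 525.0 and 542.1 in wild-type brains (probe set 95324_at). Every knockout animal lay below every wild-type animal, although the lowest wild-type signal was only 1.06 times the highest knockout signal. The means were 484.9 ± 12.5 in knockout and 531.8 ± 9.06 in wild-type brains (SD, n = 3 each), with a log2 difference of -0.13 ± 0.08 or 1.09-fold lower in knockout. Leaving out any of the 6 animals in turn gave -0.14 to -0.11.

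The Atp2b2 signal of knockout replicate 2 was 470.7, the lowest of the 6 arrays by a small step. In the same animal Gabra6, a GABA receptor subunit found in cerebellar granule cells, read 11.8, against 1254 to 1388 elsewhere. Without this animal Atp2b2 had a difference of -0.11. The part of cerebellar cells in the Atp2b2 value was not tested. The standard error of 0.08 printed by limma borrows spread from all probe sets, whereas the 6 Atp2b2 values by themselves had a pooled SD of 0.03. The standard error belongs to a difference of means and the SD to single animals, so their sizes are not compared.

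The sodium pump beta subunits both had lower knockout means with overlapping groups. Atp1b1, the beta 1 subunit, read 810.3, 1001 and 864.7 in knockout brains, against 979.7, 1036 and 971.1 in wild-type brains (probe set 161467_f_at, of a less specific kind). Knockout replicates 1 and 3 lay below all wild-type animals and replicate 2 among them. The log2 difference was -0.16 ± 0.09, and it ran from -0.25 without knockout replicate 2 to -0.10 without knockout replicate 1. The other Atp1b1 probe set, 160500_at, was dim at 17.8 to 27.6 in knockout brains, against 18.4 to 21.6 in wild-type brains and had a difference of 0.11.

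Atp1b2, the beta 2 subunit or AMOG, read 875.9, 728.4 and 1104 in knockout brains, against 1111, 1030 and 1112 in wild-type brains (probe set 93664_at). Knockout replicates 1 and 2 were below all wild-type animals, whereas knockout replicate 3 lay within the wild-type range. The means were 902.7 ± 189 in knockout and 1084 ± 47.3 in wild-type brains (SD, n = 3 each), with a log2 difference of -0.28 ± 0.13. The value depended on single animals, with -0.14 without knockout replicate 2 and -0.43 without knockout replicate 3. A dim second probe set, 93665_at, read 10.9, 13.4 and 57.6 in knockout brains, against 13.5 to 18.0 in wild-type brains, and replicate 3 was the highest knockout animal in both probe sets. With the probe sets of each gene averaged, the Atp1b2 difference was -0.01 and that of Atp1b1 -0.03.

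Astrocyte genes were examined beside Atp1b2 because AMOG is found on glia. The summed signal of 8 astrocyte genes was 14065 to 14860 in knockout brains, against 15313 to 15783 in wild-type brains, without overlap, and none of the 8 was below the filter. The sum was led by Aldoc, the brightest of them. Aldoc read 5953, 5285 and 5635 in knockout brains, against 6034, 5837 and 6939 in wild-type brains, with overlap. The list median was -0.16 in knockout replicate 3, in which Atp1b2 was not low, and -0.11 and -0.18 in knockout replicates 1 and 2. Of the 8 genes 6 had lower knockout values, among them S100b at -0.41 and Aqp4, the water channel of astrocyte endfeet, at -0.28, and Gja1 had 0.17. The 7 oligodendrocyte genes summed to 11217 to 12441 in knockout brains, against 12868 to 13629 in wild-type brains. The part of these cells in the Atp1b2 value was not tested.

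The patterns nearest to Atp1b2 were searched in the same way. Cox6b2, a cytochrome c oxidase subunit, differed by a root-mean-square of 0.05, St3gal6, a sialyltransferase, by 0.06, and Art5, an ADP-ribosyltransferase, by 0.06 on the log2 scale. St3gal6 read 118.6, 108.3 and 151.9 in knockout brains, against 154.2, 152.7 and 159.9 in wild-type brains. Knockout replicates 1 and 2 were low and replicate 3 close to wild type, a likeness to Atp1b2 that the search selects for.

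**Figure D3:**
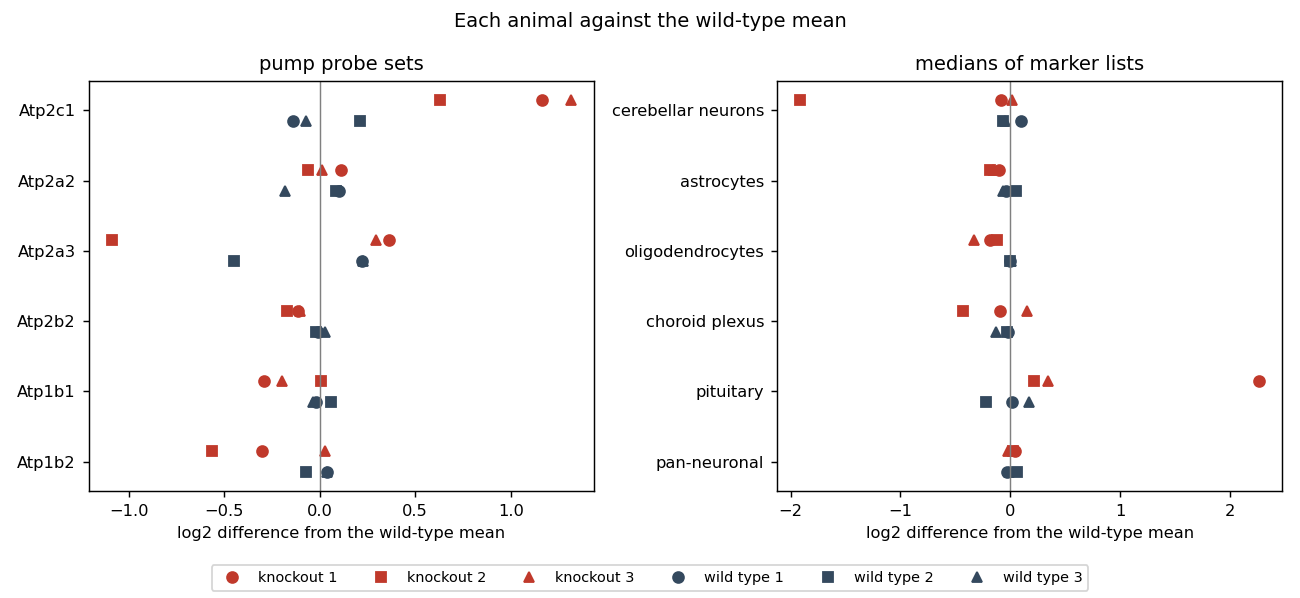
Log2 difference of each animal from the wild-type mean (horizontal axes) for the 6 tested pump probe sets (left) and for the medians of 6 marker lists (right), knockout in red and wild type in blue, with symbols for replicates. Knockout replicate 2 lies at -1.92 for the cerebellar list and at -1.09 for Atp2a3, and knockout replicate 1 at 2.27 for the pituitary list.

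Seen by animal, knockout replicate 2 gave the lowest knockout signal for 5 of the 6 pump genes, the exception being Atp1b1, and the lowest of all 6 arrays for 3 of them. The share over all tested probe sets was not counted, so nothing is read from these counts. The median signal of this array, 119.2, was also the lowest, against 121.4 to 130.2 on the others. Knockout replicate 1, whose pituitary genes were bright, gave the lowest Atp1b1 signal and knockout replicate 3 the lowest of none. Without knockout replicate 2 the median difference of the 6 probe sets was -0.02.

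**Figure D4:**
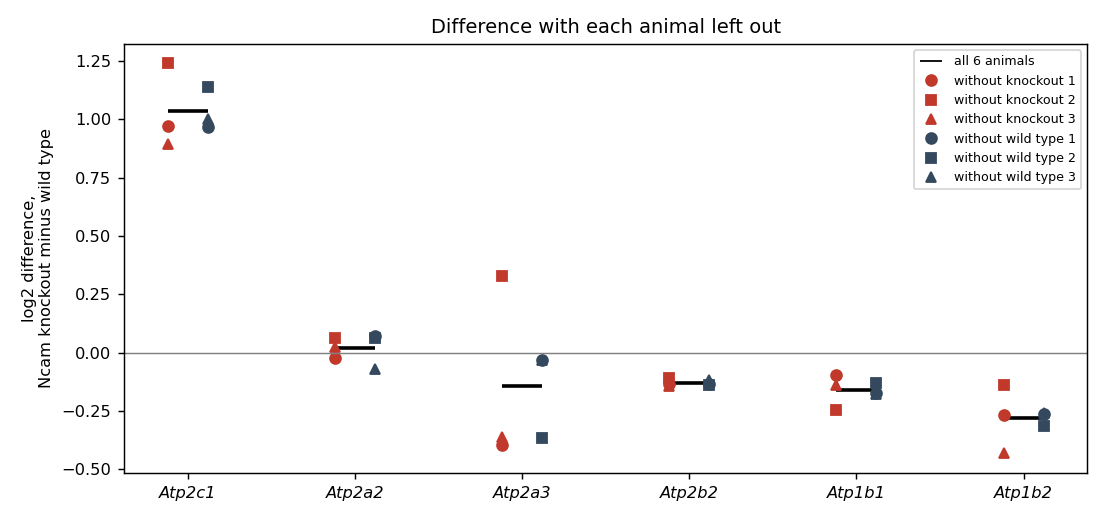
Log2 difference, knockout minus wild type (vertical axis), of each pump gene with all 6 animals (black bars) and with 1 animal left out (symbols, red for knockout and blue for wild type). Atp2c1 stays between 0.89 and 1.24 and Atp2b2 between -0.14 and -0.11, while Atp2a3 turns to 0.33 without knockout replicate 2.

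Age was compared across both genotypes, a contrast that had no part in proposing the genes. None of the 6 pump probe sets passed between 3-month and 2-month animals in limma with genotype as a covariate, at an adjusted p under 0.05 (0.0268% of all tested probe sets) or at an unadjusted p under 0.05 (12.4% of all). Atp1b2 came closest, with signals of 1104 and 1112 at 3 months, against 875.9, 728.4, 1111 and 1030 at 2 months, a log2 difference of 0.26 ± 0.11 (limma, adjusted p = 0.413). Its 3-month values overlapped those of the 2-month animals. Atp2a3 had 0.50 ± 0.36 (adjusted p = 0.585 in limma), again with knockout replicate 2 as a 2-month animal far below the rest. With 2 animals at 3 months these differences were not detectable at this spread. The genotype difference was also compared between ages, an addition made after the data had been seen, and 0 of the 6 passed in limma (adjusted p 0.857 to 0.999), beside 0.0268% of all tested probe sets. At an unadjusted p under 0.05 the count was 0 of 6, beside 5.70%. A single knockout and a single wild-type animal were 3 months old, so this comparison has little precision.

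The other genes of ion pumping and calcium handling were tested between genotypes from 9 lists. Of 113 listed genes 67 had a probe set of their own and 58 were bright enough, and in limma 0 rose and 0 fell at an adjusted p under 0.05, beside 0.0134% of all tested probe sets in either direction. At an unadjusted p under 0.05 there were 4 higher and 4 lower, beside 3.26% and 3.68% of all tested probe sets. Together these were 13.8% of the 58, beside 6.94%, and whether the shares differ was not tested. Hspa5, Canx and Fxyd2 are among them, and the lists were drawn up with earlier results of these data known. Nothing is therefore read from this share. The IP3 receptor Itpr1 had no probe set with 1 symbol and was not analysed here.

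**Figure D5:**
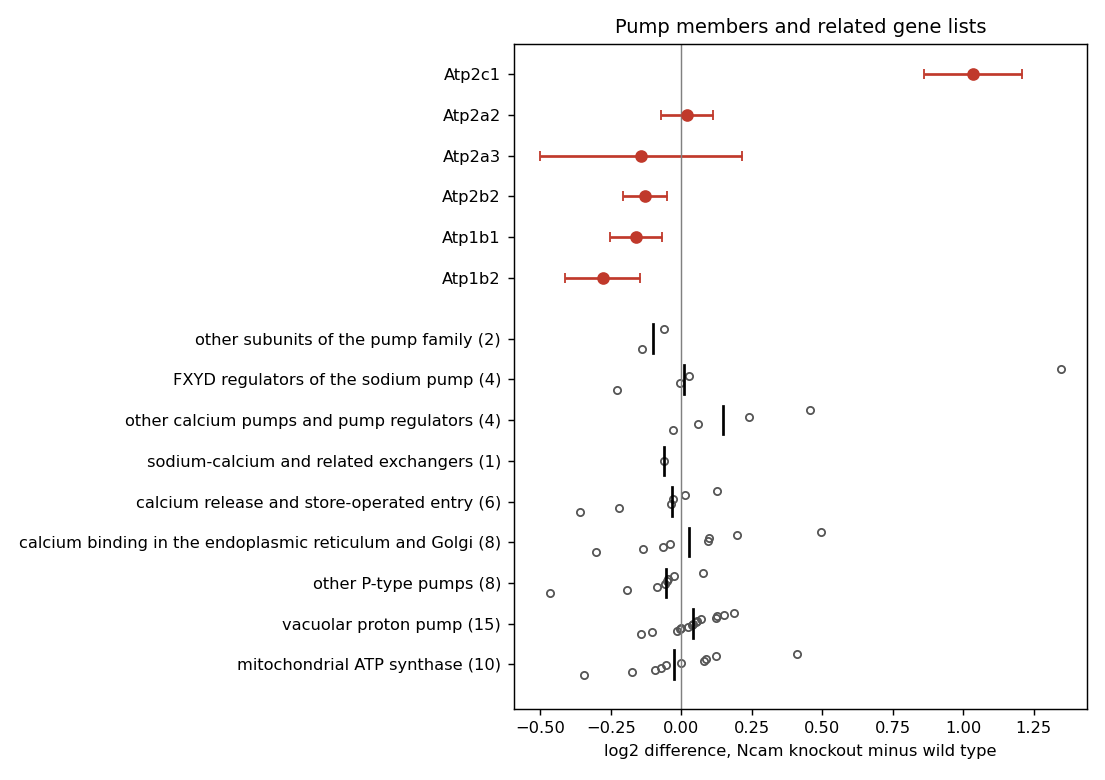
Log2 difference, knockout minus wild type (horizontal axis), of the 6 tested pump probe sets with standard errors (red) and of the tested genes of 9 related lists (open circles, with the number of genes in brackets and a black bar at the list median). List medians lie between -0.10 and 0.15, and Fxyd2 at 1.35 is the highest circle.

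Genes of the sodium pump outside the beta subunits above gave 0 calls. Atp1b3, the beta 3 subunit, had -0.06 ± 0.07 and Atp4a, the gastric proton pump of the same family, -0.14 ± 0.10 on the log2 scale. Of the FXYD proteins, small regulators of the sodium pump, 2 of 4 had higher and 2 lower knockout values. Fxyd2 read 142.6, 174.9 and 97.5 in knockout brains, against 65.2, 23.2 and 49.4 in wild-type brains, without overlap (log2 difference 1.35 ± 0.30, adjusted p = 0.416 in limma). All 3 wild-type values lay below the filter limit, so this gene passed the filter through its knockout signal alone. Fxyd7, a brain member of the family, had -0.23 ± 0.25 and Fxyd1, phospholemman, -0.01 ± 0.10.

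Other genes around the calcium pumps gave 0 calls as well. Among 4 further calcium pump and regulator genes 3 had higher values. Calm2, a calmodulin gene whose product activates PMCA pumps, had 0.46 ± 0.18 (adjusted p = 0.719 in limma). Atp2a1, the SERCA pump of skeletal muscle, had 0.24 ± 0.18 by a less specific probe set. Bsg and Nptn, membrane proteins that associate with PMCA pumps, had -0.03 ± 0.06 and 0.06 ± 0.08. The exchanger Slc8a1, which trades sodium for calcium, had -0.06 ± 0.16. Of 6 calcium release and entry genes 2 had higher and 4 lower values. The lowest were the IP3 receptor Itpr2 at -0.36 ± 0.17, by a less specific probe set, and the ryanodine receptor Ryr1 at -0.22 ± 0.17. Other Itpr2 probe sets were below the filter, with differences of -0.09, 0.05 and 0.07.

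Calcium-binding proteins of the endoplasmic reticulum and Golgi, the stores that the SERCA and SPCA1 pumps fill, went both ways. Of the 8 tested genes of this joint list 4 were higher and 4 lower, with a median of 0.03. Hspa5, the chaperone BiP, had 0.49 ± 0.11 (adjusted p = 0.416 in limma) and the lectin chaperone Canx -0.30 ± 0.11 (adjusted p = 0.699 in limma). Calreticulin, Calr, was below the filter and read 27.1, 18.9 and 6.84 in knockout brains, against 19.0, 5.68 and 11.8 in wild-type brains.

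The remaining lists hold ATP-driven or ATP-making machines of other membranes. Of 8 other P-type pumps 7 had lower and 1 higher values (median -0.06). Atp8a1, a flippase that moves phosphatidylserine, read 265.3, 224.7 and 274.8 in knockout brains, against 364.8, 346.1 and 360.6 in wild-type brains, without overlap (-0.47 ± 0.11, adjusted p = 0.416 in limma), and Atp13a2, a lysosomal polyamine pump, had -0.09 ± 0.08. The 15 genes of the vacuolar proton pump had a median of 0.04, with Atp6ap2 at 0.15 ± 0.07 and Atp6v0e2 at -0.11 ± 0.05. The 10 genes of mitochondrial ATP synthase had a median of -0.03, with Atp5e at -0.34 ± 0.08 by a less specific probe set and Atp5k at 0.41 ± 0.13.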

How the data were processed

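Per the labels' protocols, biotin-labelled cRNA of each brain was put on a one-colour Affymetrix array. GCOS 1.4 stands in the submitters' processing notes, without its settings. The authors deposited intensity values on a linear scale, which the values show to be scaled to a common mean, so a change in total RNA content would not be seen.

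After 66 control entries were set aside, 12422 probe sets remained, and 7453 were tested, those whose mean log2(signal + 16) reached the 40th percentile, which equals a signal of 72.2. Of the 12422, 10833 had 1 gene symbol in the possibly outdated platform annotation, 396 several and 1193 none. Suffixes _s_at, _f_at, _r_at, _g_at and _i_at mark less specific probe sets, such as those that read Alas2, Gabra6 and Gja1. Genotypes were set against each other in R 4.3.3 with limma 3.58.1 (lmFit, eBayes with an intensity trend, two-sided, Benjamini-Hochberg over all tested probe sets), and ages with genotype as a covariate. For listed genes the brightest probe set was used. The procedure was tested on simulated data with independent normal noise. These held no array-wide effect such as the low cerebellar signal of knockout replicate 2, so the simulation does not cover such an effect. The number of arrays limits the precision. Figures were drawn with matplotlib 3.10.9.

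The pump genes, gene lists and tests were chosen with earlier results of these data known, so Hspa5, Canx and Fxyd2 in the lists are no independent evidence. Named are every pump probe set, the 2 genes of lowest p in each related list, 7 genes fixed by name, and the 3 genes nearest in pattern to a pump whose log2 range exceeded 0.5. Traip, Camp, Mrpl3, Wdr82, Pf4, Gp9, Hba-a1, Alas2, Gabra6, S100b, Aqp4, Aldoc, Gja1, Bsg, Nptn and Fxyd1 fall outside that rule and were picked once their values were known. The alternatives were other scalings, pseudocounts of 1 and 64, no filter or a 60th-percentile filter, array weights, a fit with no intensity trend, replicate number or age in the fit, averaged probe sets and each array left out.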

Additional observations from a re-analysis of the deposited data

Results flagged for a closer look

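Among the 4 animals aged 2 months, Atp2a2 read 1717 and 1521 in knockout replicates 1 and 2, against 1707 and 1685 in wild-type replicates 1 and 2. Knockout replicate 2 lay far from the other 3, with a gap of 0.838 of the whole range, above Dixon's critical value for 4 samples. Chance alone gives such a gap in about 1 of 20 groups, and 6 probe sets were examined.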

How the results depend on the processing

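Limits are 3 animals a group, 1 bright probe set per gene and knockout replicate 2, whose array lacked most cerebellar signal. The count of probe sets called between genotypes was 2. It was 1 with quantile normalization, median centring, no filter or no intensity trend, 4 with array weights, and 1 to 2 with an array left out. The count between ages was also 2. It was 1 without a filter, 0 with no intensity trend (882 at an unadjusted p under 0.05), 1 without genotype as a covariate, and 0 to 5 with an array left out. The related genes gave 0 calls in limma under every alternative, and 5 to 11 at an unadjusted p under 0.05. The median pump difference moved by less than the spread between animals under each alternative run, although it was 0.02 over all 11 probe sets with no filter. The sign held in all 17 alternatives for Atp2c1 (0.63 to 1.24), Atp2b2, Atp1b1 and Atp1b2. It turned in 2 for Atp2a2 and in 2 for Atp2a3, namely array weights and leaving out knockout replicate 2. Several of these outcomes were fixed in advance. The filters, the replicate number or age in the fit, and the brightest probe set cannot change the difference of a tested probe set in this balanced design. The genes were also selected on this contrast, so nothing is read from the signs that held. The replicate number as a replicate block gave 2 calls between genotypes and left the pump median at -0.14, which a balanced block cannot change. Deviations of same-numbered animals correlated at 0.01, 0.15 and 0.20, against -0.22 to 0.08 for animals of different numbers. Number 3 is also the 3-month age, so number and age cannot be told apart there. The numbers were not taken as pairs, and whether same-numbered animals share an effect was not tested.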
